A study of Homo sapiens with 2 samples.

Results

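The nuclear receptor family was examined in HepG2 cells after hawk tea extract (HTE). The family was taken as 42 genes, and its probes were found by matching each probe's RefSeq transcript to a member gene. All 42 genes had a probe, out of 41127 genes and transcripts on the arrays. With DMSO, HTE or both, 35 members gave a signal well above background, as did 23752 genes and transcripts of the whole series, and these are called measured. HepG2 cells are an established human hepatoma line. One culture group was treated with DMSO (1‰) for 24 h and served as the control, and the other was treated with HTE for 24 h. The labels give a dose of 200 µg/mL, whereas the study's text on the microarray and the name of the HTE array both give 300 µg/mL. Both groups were grown in the same high-glucose medium with serum, and the HTE was dissolved in DMSO. Each condition was measured once, on a 1-colour Agilent array, so there were no replicates. No test between conditions was possible, and every difference below compares 2 arrays.

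Nuclear receptors are transcription factors that bind small lipophilic ligands or, in the orphan members, act without a known one. Many bind DNA as partners of a retinoid X receptor (RXR) and exchange corepressors for coactivators when a ligand enters the pocket. In liver they sense oxysterols, fatty acids, bile acids, drugs and hormones, and they set the expression of genes for lipid, drug and sugar handling. The half-site AGGTCA is the core that many of them recognise, and CACGTG is the E-box bound by the CLOCK and BMAL1 pair and by other factors.

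Promoter sequence is shown for NR1D2 and PPARG, since both were past 2-fold higher on the HTE array and their promoter windows hold these motifs. Windows of 250 bases before to 50 after each transcription start came from RefSeq (GRCh38.p14) and covered 38 of the 42 members in 92 windows. VDR, NR2F6, NR4A2 and HNF4G were not matched to a window. CACGTG reads the same on both strands, and AGGTCA was searched on both. The capitals below mark the motif.
NR1D2, E-box, chr3:23945946-23946041 (+): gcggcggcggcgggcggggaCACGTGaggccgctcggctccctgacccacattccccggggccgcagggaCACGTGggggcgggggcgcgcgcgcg
PPARG, half-site, chr3:12287131-12287209 (+): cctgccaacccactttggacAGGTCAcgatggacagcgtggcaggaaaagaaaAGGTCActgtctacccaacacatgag
PPARG, half-site, chr3:12289026-12289069 (+): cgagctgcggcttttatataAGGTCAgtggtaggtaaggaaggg
The NR1D2 stretch lies 175 to 80 bases before a start and holds 2 E-boxes. The first PPARG stretch lies 237 to 159 bases before its start and holds 2 half-sites, and the other ends 1 base before the start of another transcript. CACGTG was present in 7.26% of 35116 windows of all genes and in 9 of the 92 member windows, those of ESR2, NR1D2, NR2C1, NR2F2, NR5A1, PGR and RARA. AGGTCA was present in 13.8% of all windows and in 13 of the 92 member windows, those of ESR2, ESRRG, NR1H3, NR5A2, PPARG, RARA, RARB and RXRG. Neither motif matched a window of RORA or NR1H2. These matches describe letters in a window and are not binding sites.

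Below, a level is the log2 processed signal of a gene's brightest probe minus its array's 75th percentile (a signal of 4020 on the control array and 3570 after HTE). A ratio is the HTE level minus the DMSO level. Levels serve to compare the arrays for 1 probe, not 1 gene with another. The software's error of the ratio was 0.20 to 0.28 for the 30 members well above background on both arrays. It covers the measurement of a spot and leaves out the spread between cultures. Across the whole array, 688 probes printed in at least 5 spots had a median SD of the ratio of 0.05, and 3759 genes with several probes had a median SD of 0.17 between probes. Spots well above background made up 60.6% of the DMSO array and 56.6% of the HTE array, no spot was saturated, and both arrays lay on 1 slide, so slide does not separate the conditions, whereas array and condition cannot be told apart. In RNA from a whole culture, fewer cells of a type and less RNA per cell cannot be told apart. The paper reported lower viability of HepG2 cells at the HTE dose it gives for the microarray. The part of this loss in the ratios was not tested. All 12 hepatocyte markers were well above background on both arrays, with a median ratio of 0.11 and 1 marker, the fibrinogen chain FGA, past 2-fold lower at -1.11. Of 9 markers of blood, endothelial and fibroblast cells, CD3E, CDH5, DCN and LUM were well above background on neither array and COL3A1 only with DMSO. The other 4 were measured on both, with the endothelial marker PECAM1 at -1.82 and the fibroblast collagen COL1A1 at -0.63. The log2 summed level of these markers was 0.84 on the DMSO array and 0.91 on the HTE array. Their part in the ratios below was not tested.

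The family as a whole stayed close to the middle of the array. Of the 35 measured members, 4 were higher after HTE by at least 2-fold (11.4%, against 5.25% of all genes measured), namely NR1H2, RORA, PPARG and NR1D2. NR1H2 was well above background only on the HTE array and so entered through it. With only probes well above background on both arrays, 3 of 30 members were at least 2-fold higher, against 4.29% of all genes. None of the 35 was counted as at least 2-fold lower, against 3.03% of all genes, with the bound of ESR1 and the ratio of RARG short of it. At 1.5-fold, 5 members were higher (14.3%, against 12.4% of all genes) and 2 were lower (against 10.5%). Of the 30 members measured on both arrays, 26 were within 1.5-fold, and 13 of them lay within 0.2 of no change. HNF4G and NR2E3 gave only bounds near 0, which do not show how far they changed. With 35 members these shares rest on few genes, and the 2-fold excess came from 4 of them. The ratio was above 0 for 21 of the 35 members, against 45.7% of all genes, and below 0 for 14, with a median of 0.03 against 0.00 for all genes. The split was 16 above and 19 below with scaling to the median, 13 and 22 without scaling, and 2 and 33 with scaling to the spike-in probes. The sign of that median depended on the scaling, since it was -0.05 with arrays scaled to the median, -0.14 without scaling and -1.06 with scaling to the spike-in probes. The median of all genes moved with it, to -0.07, -0.16 and -1.07. Ratios ran from -0.90 for ESR1, a bound, to 1.27 for NR1H2, taken against a dim signal. Each had 1 array not above background.

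**Figure D1:**
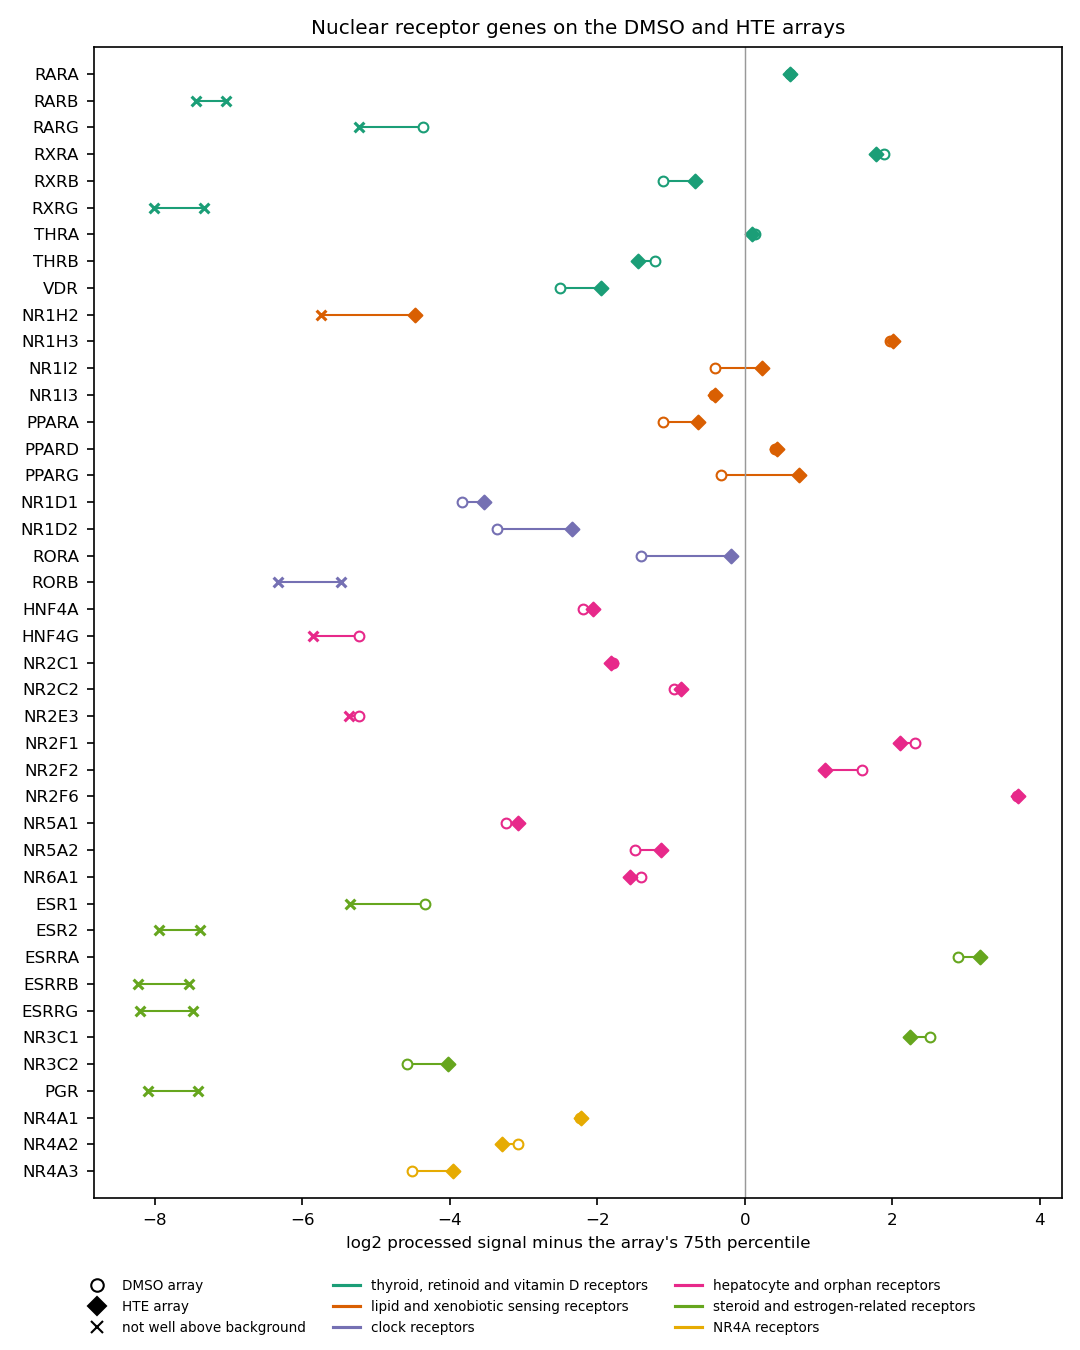
Each line is 1 of the 42 nuclear receptor genes, with its level (log2 processed signal minus the array's 75th percentile) on the DMSO array (open circle) and the HTE array (filled diamond), coloured by role, and a cross where the probe was not well above background. PPARG, RORA and NR1D2 show the widest gaps with both arrays above background, and the 7 members with a cross at both ends are RARB, RXRG, RORB, ESR2, ESRRB, ESRRG and PGR.

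All 7 receptors that sense lipids and foreign compounds were measured. Their median ratio was 0.47, or 0.26 for the 6 measured on both arrays. NR1H2 and PPARG were at least 2-fold higher, against 5.25% of all genes, and NR1H2 passed the background filter only on the HTE array. Each of the 7 ratios was above 0, against 45.7% of all genes, but those of NR1H3, NR1I3 and PPARD by no more than 0.04. With 7 members these shares rest on few genes. The number below 0 was 1 with normexp background correction or quantile normalization. It was 3 with scaling to the median or without scaling, and 6 with spike-in scaling.

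PPARG is the peroxisome proliferator-activated receptor best known for adipocyte differentiation and lipid storage. Its brightest probe had a level of -0.32 on the DMSO array and 0.74 on the HTE array, a ratio of 1.06 or 2.08-fold. A second PPARG probe was printed in 10 spots on each array, and these serve as technical repeats. Their signals ran from 2654 to 3026 on the DMSO array, with a median of 2820, and from 4768 to 5194 on the HTE array, with a median of 5036. The spots of the arrays did not overlap, and the mean ratio was 1.02 ± 0.05 (SD over 10 spots), with single spots between 0.914 and 1.104. Both PPARG probes thus gave nearly the same ratio. It lay close to the 2-fold line, at 0.97 with normexp background correction, 0.98 with scaling to the median and 0.89 without scaling, and it was -0.03 with scaling to the spike-in probes.

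PPARA, the fatty acid sensor that drives hepatic fatty acid oxidation, had a level of -1.11 on the DMSO array and -0.64 on the HTE array, a ratio of 0.47. Its second, dimmer probe went the other way, with a ratio of -0.40, so the PPARA probes disagreed in sign. PPARD, which is broadly expressed and also binds fatty acids, was at 0.41 and 0.43, a ratio of 0.03, while its dimmer probe gave 0.60. Among the 3 PPARs, a ratio past 2-fold was found for PPARG, on both of its probes.

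NR1I2 encodes the pregnane X receptor (PXR), which is activated by many drugs and plant compounds and induces CYP3A enzymes. It was printed in 10 spots, with signals from 2885 to 3197 on the DMSO array (median 3067) and from 3880 to 4350 on the HTE array (median 4231). The spots did not overlap, and the ratio was 0.63 ± 0.04 (SD over 10 spots), which is 1.55-fold, with all 10 spots higher on the HTE array. NR1I3 encodes the constitutive androstane receptor (CAR), which shares many of these target genes. Its level was -0.41 on both arrays, a ratio of 0.00, and its second probe, close to background, gave 0.76.

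The liver X receptors (LXR) bind oxysterols and induce cholesterol efflux genes. NR1H3, which encodes LXRα, had a level of 1.97 on the DMSO array and 2.02 on the HTE array, a ratio of 0.04. NR1H2, which encodes LXRβ, was dim on both arrays. Its only probe had a signal of 74.9 with DMSO, not well above background, and one of 161 with HTE, well above it. The levels of -5.75 and -4.47 make it 2.41-fold higher, a ratio of 1.27 taken against the dim DMSO signal itself. The ratio was 0.72 with normexp correction. With this signal and 1 spot, the NR1H2 value has a software error of 0.40, larger than that of any member measured on both arrays.

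**Figure D2:**
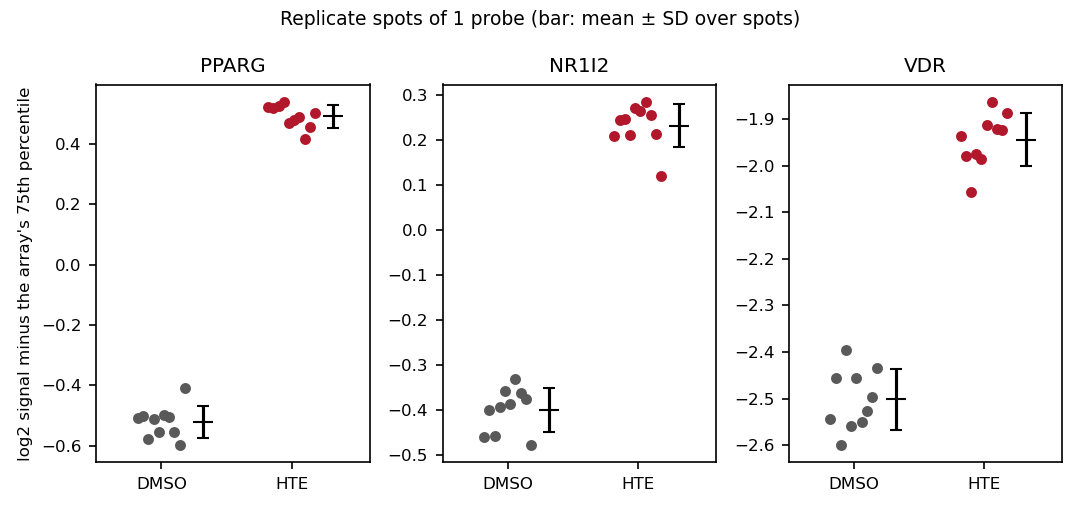
Each point is 1 of 10 printed spots of 1 probe for PPARG, NR1I2 and VDR, shown as the log2 signal minus the array's 75th percentile on the DMSO and HTE arrays, with bars for the mean ± SD over spots. The HTE spots lie above all DMSO spots for each of the 3 genes, by a mean of 1.02, 0.63 and 0.56, and the spots are repeats on 1 array, not separate cultures.

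The clock receptors include the REV-ERBs, which repress transcription of the clock gene BMAL1, and the RORs, which activate it at the same elements. Of the 4 members, 3 were measured and 2 of them were at least 2-fold higher (against 5.25% of all genes), with a median ratio of 1.02. A count from 3 genes was too small to set apart from that share. RORA had a level of -1.41 on the DMSO array and -0.19 on the HTE array, a ratio of 1.22 ± 0.20 (software error) or 2.33-fold. The ratio rested on 1 spot of 1 probe. RORA was the member that stayed past 2-fold with every background correction and every scaling tried other than the spike-in probes, where it was 0.13.

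NR1D2, which encodes REV-ERBβ, had a level of -3.36 on the DMSO array and -2.34 on the HTE array, a ratio of 1.02. Its second probe gave 0.64, which is in the same direction and short of 2-fold, and the ratio was 0.95 with quantile normalization, 0.85 without scaling and -0.06 with spike-in scaling. NR1D1, which encodes REV-ERBα, was at -3.83 and -3.53, a ratio of 0.29. NR1D1 overlaps THRA on the opposite strand of the genome, and THRA had a ratio of -0.04. RORB, known mainly from the nervous system, was not measured.

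Among the thyroid, retinoid and vitamin D receptors, 7 of 9 were measured, no ratio or bound was past 2-fold, and the median ratio was -0.04. RXRA, the common partner of the PPARs, LXRs, PXR and the vitamin D receptor, had a level of 1.89 on the DMSO array and 1.78 on the HTE array, a ratio of -0.11. RXRB was at -1.11 and -0.68, a ratio of 0.43, and RXRG was not measured. RARA, a retinoic acid receptor, was at 0.62 and 0.61, a ratio of 0.00, but its second probe, which was dimmer, gave -0.77. RARG was well above background only with DMSO, with a signal of 196 against 95.6. It was 1.82-fold lower on the HTE array, a ratio of -0.86 taken against the dim HTE signal itself. That ratio was -0.47, short of 1.5-fold, with normexp correction. RARB was not measured. THRA had a ratio of -0.04 and a second probe at -0.42, and THRB, the main thyroid hormone receptor of hepatocytes, was at -1.22 and -1.45, a ratio of -0.23.

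VDR, the vitamin D receptor, was printed in 10 spots. Their signals ran from 663 to 764 on the DMSO array, with a median of 705, and from 859 to 982 on the HTE array, with a median of 937. The spots did not overlap, and the ratio was 0.56 ± 0.07 (SD over 10 spots), or 1.47-fold, from levels of -2.50 and -1.94. All 10 spots were higher on the HTE array, and the ratio was short of 1.5-fold.

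Of the 11 hepatocyte and orphan receptors, 9 were measured on both arrays. All 9 were within 1.5-fold, 6 lay within 0.2 of no change, and their median ratio was 0.01. HNF4A, the master regulator of hepatocyte genes and of apolipoprotein and VLDL genes, had a level of -2.19 on the DMSO array and -2.05 on the HTE array, a ratio of 0.13 ± 0.21 (software error). It was 0.05 to 0.16 with normexp correction, quantile normalization or scaling to the median. Without scaling it was -0.04 and with spike-in scaling -0.95, against -0.16 and -1.07 for the median of all genes. The HNF4A ratio rested on 1 spot of 1 probe. Whether that probe reads all HNF4A transcripts was not tested. HNF4G, its paralog, was well above background only with DMSO, with signals of 108 and 61.9 and a bound of -0.01, its own dim signal giving -0.63. The photoreceptor factor NR2E3 was also well above background only with DMSO, with signals of 107 and 86.6. The lowest ratio of the 9 was that of NR2F2 (COUP-TFII), which was at 1.59 on the DMSO array and 1.08 on the HTE array, a ratio of -0.51. Its paralog NR2F1 (COUP-TFI) was at 2.30 and 2.10, a ratio of -0.20, and NR2F6 was at 3.69 and 3.70. NR5A2 (LRH-1), which regulates bile acid synthesis together with HNF4A, had the highest ratio of the 9, 0.35, with 0.09 from its other probe. NR2C1, NR2C2, NR5A1 and NR6A1 lay between -0.16 and 0.16.

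Of the 8 steroid and estrogen-related receptors, 4 were measured, and the median of their ratios was 0.02. NR3C1, the glucocorticoid receptor, was at 2.51 on the DMSO array and 2.24 on the HTE array, a ratio of -0.27, and its other probes gave -0.18 and -0.38, so all 3 were lower. NR3C2, the mineralocorticoid receptor, was dim, at -4.58 and -4.02, a ratio of 0.57 ± 0.28 (software error). ESRRA, an estrogen-related receptor that drives mitochondrial genes, was at 2.89 and 3.20, a ratio of 0.30, and its second probe gave 0.87. ESR1, estrogen receptor α, was well above background only with DMSO, with signals of 198 and 87.8, and was at least 1.86-fold lower on the HTE array, a bound of -0.90 that was -0.23, short of 1.5-fold, with normexp correction. A second ESR1 probe, printed in 10 spots, had none well above background on either array, with signals of 13.4 to 19.4 and 18.8 to 22.1. ESR2, ESRRB, ESRRG and PGR were not measured.

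The NR4A receptors are immediate early genes, and no member was past 1.5-fold. NR4A1 was at -2.23 on the DMSO array and -2.22 on the HTE array, a ratio of 0.01. NR4A2 had a ratio of -0.21 from its brighter probe and 0.75 from the dimmer one, so its probes disagreed in sign. NR4A3 was at -4.51 and -3.95, a ratio of 0.56 ± 0.26 (software error).

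**Figure D3:**
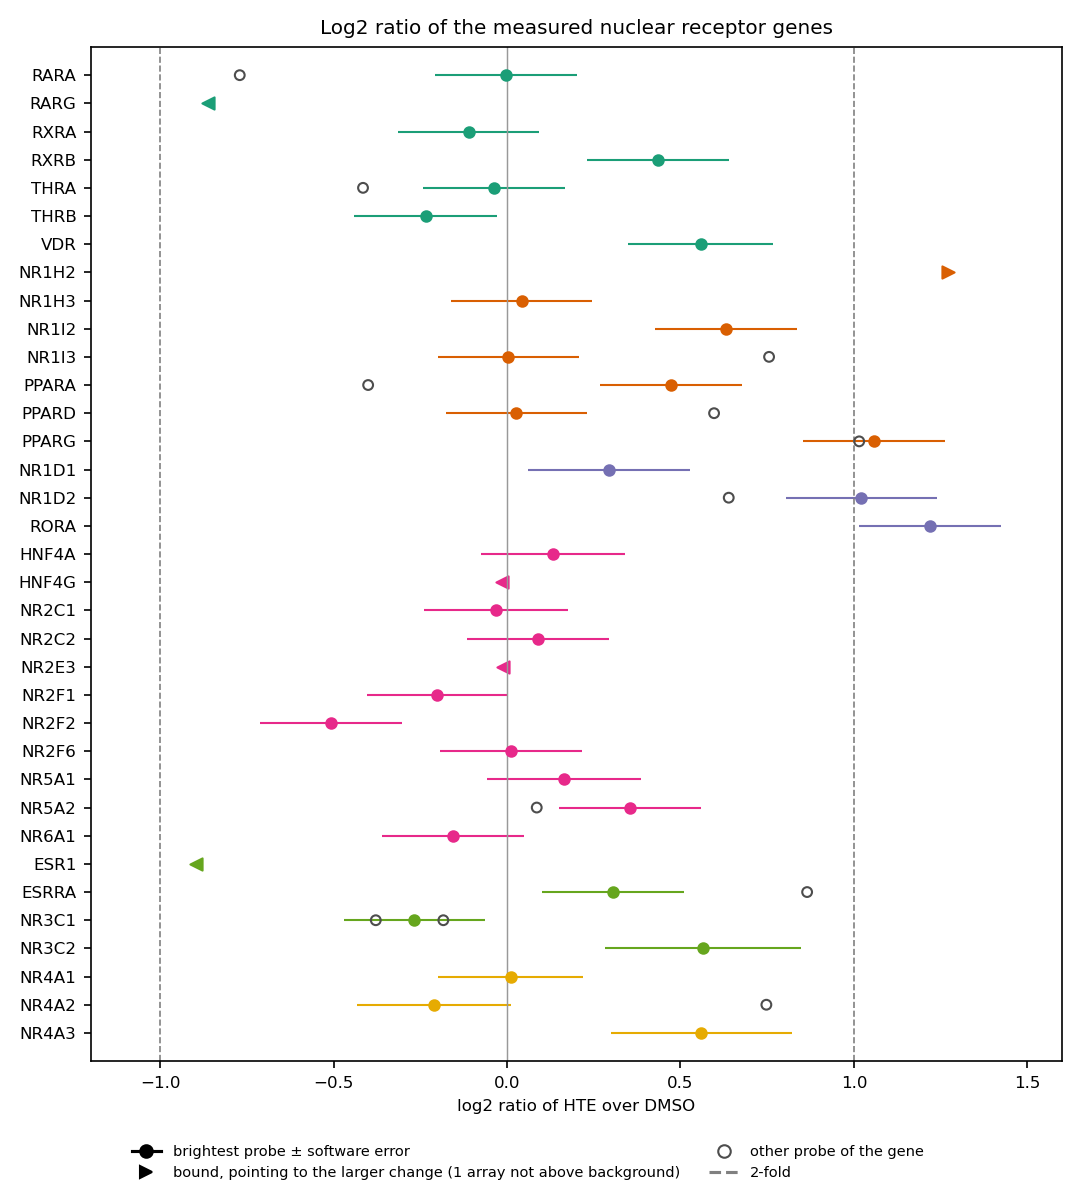
The log2 ratio of HTE over DMSO is plotted for the 35 measured members, grouped by role and coloured as in the plot of levels, with the software error of the brightest probe (bars), other probes above background on both arrays (open circles), bounds (triangles) and the 2-fold lines (dashed). Only NR1H2, PPARG, NR1D2 and RORA reach the upper 2-fold line, and the probes of PPARA and NR4A2 fall on both sides of 0.

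Across the family, 12 members had at least 2 probes well above background, and for 2 of them, PPARA and NR4A2, the probes differed in sign. Another 23 members had 1 probe on the arrays. For these, including RORA, NR1H2, NR1I2, VDR and HNF4A, no second probe could be set beside the ratio.

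None of the cofactors that receptors recruit was past 2-fold, against 5.25% of all genes higher and 3.03% lower. The lists were too short to set them apart from those shares. All 12 coactivators were measured, 4 were above 0 and 8 below, and the median ratio was -0.08. NCOA3, a p160 coactivator, was the lowest, at 0.33 on the DMSO array and -0.43 on the HTE array, a ratio of -0.76, and the acetyltransferase KAT2B was the highest at 0.30. All 9 corepressors were measured, and their brightest probes ran from -0.29 for NRIP1 to 0.22 for LCOR. Second probes went further, with 0.60 for LCOR and -0.41 for TBL1XR1, whose brightest probe gave 0.14. The corepressor NCOR1, which the REV-ERBs and the unliganded thyroid and retinoic acid receptors recruit, had a ratio of -0.21. Its other probes gave -0.34 and 0.10, so the NCOR1 probes differed in sign.

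Genes known as targets of each receptor were read beside it. Each list is given with its count and median, next to a median of 0.00 for all genes measured, and no list was tested. Among all genes measured, 5.25% were at least 2-fold higher and 3.03% at least 2-fold lower. With spike-in scaling the median of every list was below 0, as was that of all genes. The PPAR targets had 14 of 16 genes measured, 12 of them above 0 and 3 past 2-fold higher, against 5.25% of all genes, with a median ratio of 0.54. VNN1, the pantetheinase vanin, went from a level of -3.21 to -1.28, a ratio of 1.93. CREB3L3, a fasting-response factor, had a ratio of 1.37, and PLIN2, a coat protein of lipid droplets, went from 2.45 to 3.72, a ratio of 1.27. The lowest was the fatty acid transporter CD36 at -0.57. With spike-in scaling the list's median was -0.55 against -1.07 for all genes.

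The PXR and CAR targets had 6 of 11 genes measured, all 6 above 0 (against 45.7% of all genes), with 2 past 2-fold higher (against 5.25%) and a median of 0.62, or -0.47 with spike-in scaling. CYP3A5, a drug-oxidising cytochrome P450, went from -3.49 to -1.42, a ratio of 2.08, and its other probe gave 1.75. CYP3A7, the fetal form, went from -1.95 to -0.29, a ratio of 1.66, and its other probe gave 1.77. These 2 genes belong to a family of near-identical members, so a probe may pick up both, and CYP3A4 was well above background on neither array. The drug transporter ABCB1 was at 0.65, and its other probe gave 0.57. The PXR and CAR target CYP2B6 was at 0.07 from its brightest probe, but its other probe gave 0.69.

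The LXR targets showed no common direction. All 10 were measured, 4 were above 0 and 5 below, the bound of ABCG1 was at 0, and the median was -0.07. Among those below 0, SREBF1 was at -0.16 from its brightest probe, while its other probe gave 0.97. SMPDL3A, a phosphodiesterase induced by LXR, was at the 2-fold line with a ratio of 1.00, and -0.08 with spike-in scaling, and SCD, the stearoyl-CoA desaturase, was at 0.78. ABCA1, the cholesterol efflux pump, went from 2.08 to 1.52, a ratio of -0.56, and its other probe gave -0.61. MYLIP, the ligase that degrades the LDL receptor, was at -0.62, and ABCG8, a sterol transporter of bile, was the lowest at -0.66.

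Of 4 vitamin D receptor targets, 2 were measured and both were past 2-fold lower, against 3.03% of all genes. CYP24A1, the enzyme that inactivates vitamin D hormone, went from 1.79 to -1.06, a ratio of -2.85, and its other probe gave -2.60, while VDR itself had a ratio of 0.56. CD14, an endotoxin co-receptor, went from -0.60 to -2.37, a ratio of -1.77. Of 10 retinoic acid receptor targets, 7 were measured, with a median of -0.44. PLAAT4, a retinoid-induced growth suppressor, was the 1 gene past 2-fold lower at -1.36, STRA6, the retinol transporter, was at -0.86, and DHRS3, a retinal reductase, was the highest at 0.73.

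All 10 glucocorticoid receptor targets were measured, with a median of 0.29 and with members far to either side. DUSP1, a MAP kinase phosphatase, was past 2-fold higher at 1.20, whereas the kinase SGK1 and the receptor chaperone FKBP5 were at -0.82 and -0.79. All 4 thyroid hormone receptor targets were measured, with a median of -0.05. ME1, the malic enzyme, had a ratio of 1.07 that was -0.02 with spike-in scaling, and DIO1, the deiodinase, was at -0.21.

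The HNF4A targets had 12 of 13 genes measured, 7 above 0 and 5 below, with a median of 0.11, or -0.07 without scaling. None was past 2-fold, against 5.25% of all genes higher and 3.03% lower, and 12 genes are few for such shares. PCK1, the gluconeogenic enzyme, was just short of 2-fold at 0.99 ± 0.29 (software error), and APOA4, an apolipoprotein, was at 0.89. PCK1 was dim, with signals of 119 on the DMSO array and 210 on the HTE array, and its ratio was 0.66 with normexp correction. At the other end LIPC, hepatic lipase, was at -0.23. APOB, the protein of VLDL, was at 4.38 on the DMSO array and 4.21 on the HTE array, a ratio of -0.18, and MTTP, which loads lipid onto it, was at -0.05.

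Of 15 clock genes, 13 were measured, 6 above 0 and 7 below, with a median of -0.05. PER2, a repressor within the clock loop, went from 0.58 to -0.47, a ratio of -1.05, and its other probe gave -1.40. BHLHE40, a transcriptional repressor of clock genes, went from 0.23 to 1.37, a ratio of 1.15. BMAL1, which the REV-ERBs repress and the RORs activate, was at 0.17 and so lay close to no change. The 2 clock genes past 2-fold thus lay on opposite sides of 0, against 5.25% of all genes higher and 3.03% lower.

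**Figure D4:**
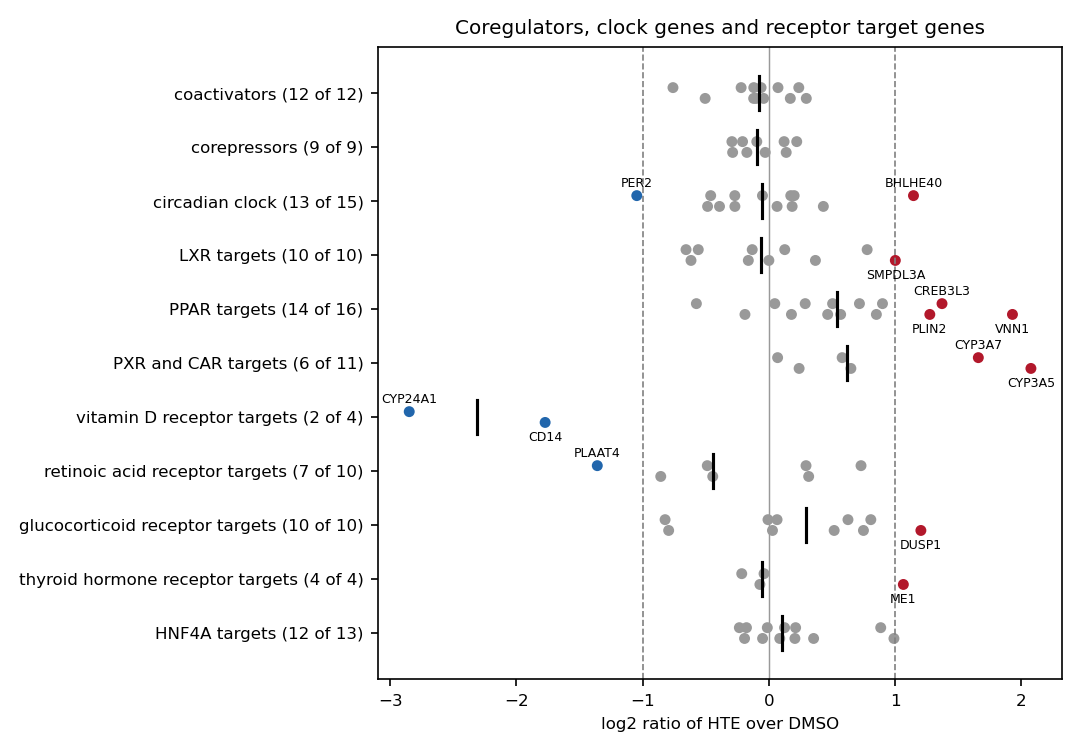
Each point is the log2 ratio of HTE over DMSO of 1 measured gene, by list (measured of listed genes in brackets), with black bars for medians, dashed lines for 2-fold, and red and blue points for genes past 2-fold higher and lower. The PPAR and the PXR and CAR lists have the highest medians, 0.54 and 0.62, and the vitamin D receptor list the lowest, -2.31 from 2 genes, while the coactivators and corepressors stay within 2-fold. Under spike-in scaling every list's median falls below 0.

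**Figure D5:**
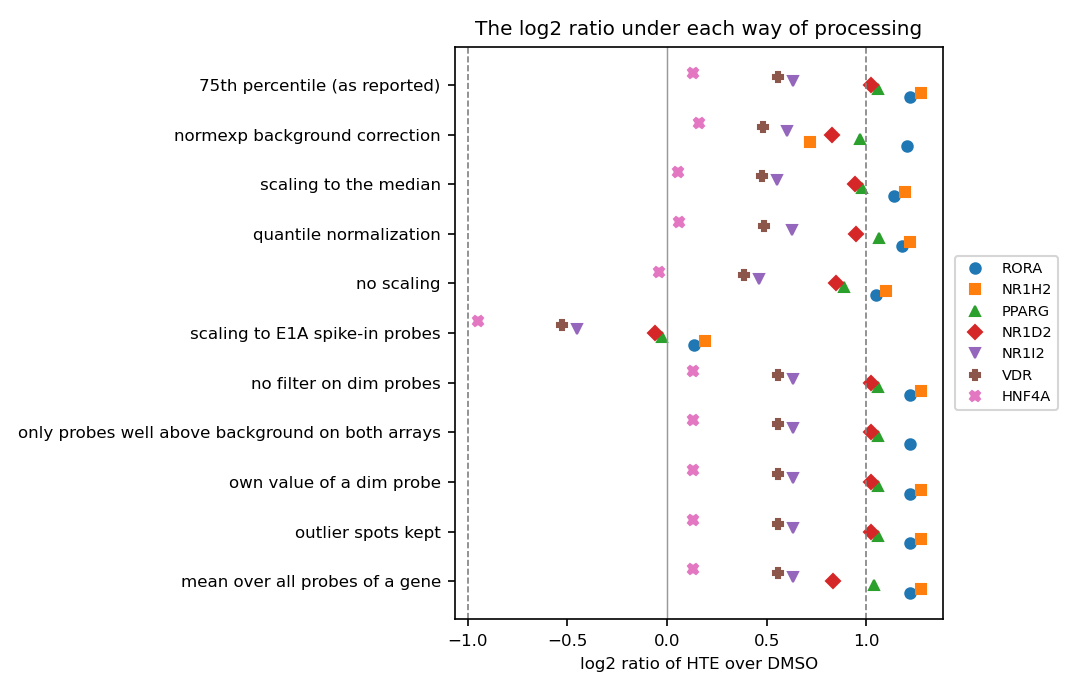
The log2 ratio of HTE over DMSO of 7 members is plotted for each way of processing, from the 75th percentile scaling as reported (top) to the mean of a gene's probes (bottom). RORA stays above 1 except with the spike-in probes. With the spike-in probes PPARG is at -0.03 and NR1D2 at -0.06, and with the other settings both lie on either side of 1. HNF4A lies near 0 except with the spike-in probes, where it is -0.95.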

How the data were processed

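For each array the authors deposited a scanner file from Agilent Feature Extraction (version 11.5.1.1 in the file header, 10.7 in the submitters' processing notes). The values used were the processed signal, an intensity already background-subtracted and detrended by the authors' software and not scaled between arrays. Control spots and outlier spots (440 and 459) were left out, log2 was taken, and the 75th percentile of each array was subtracted. Replicate spots were then averaged per probe. Probes entered when a share of at least 0.5 of their spots was well above background with DMSO or HTE. A gene took its brightest probe, named through RefSeq accessions (28174 of 50599 probes). Where 1 array was not above background, the ratio was a bound against the higher of the dim signal and the lowest signal well above background. A bound under 1-fold was set to 0. For NR1H2 and RARG the dim signal was the higher, so their values are estimates and not smallest possible changes.

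The members, groups and target lists were chosen with earlier results of these data known. Named genes were members past 1.5-fold or near no change, receptors of interest in cholesterol metabolism, and the extremes of each list. PPARD, NR2F6, the NR4A genes and some other members and list genes were named after their values were seen. Alternatives were other background correction, scalings, filters, probe rules and thresholds. The tools were numpy 2.4.6, matplotlib 3.10.9 and pandas 2.3.3 in Python 3.11.15, and R 4.3.3 with limma 3.58.1 (normexp, offset 50, on the median signal), and the steps were tested on simulated data. One listed gene is not reported here.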

Additional observations from a re-analysis of the deposited data

How the results depend on the processing

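The count of members at least 2-fold higher (4) was 1 with normexp background correction, 2 with scaling to the median, 2 without scaling, 0 with scaling to the E1A spike-in probes and 0 at a 3-fold threshold, and it was 3 to 5 under the other alternatives. The count at least 2-fold lower (0) was 2 without scaling (ESR1 and RARG), 19 with spike-in scaling, 1 with a dim probe's own value in place of its bound (ESR1) and 2 at a 1.5-fold threshold. The median ratio of the measured members (0.03) was -0.053 with scaling to the median, -0.14 without scaling, -1.06 with spike-in scaling, 0.11 with no filter on dim probes and 0.090 with the mean over all probes. Spike-in scaling turned the sign of 4 genes past 2-fold, with PPARG at -0.025, NR1D2 at -0.063, SMPDL3A at -0.082 and ME1 at -0.019. The cause of these shifts was not tested. The E1A probes were brighter on the HTE array, with unscaled ratios from 0.21 to 1.57. No paired analysis was possible because each condition had 1 array. Signal over background limits NR1H2, ESR1, RARG, HNF4G and NR2E3 to bounds or to a ratio against a dim signal, and 7 members gave no ratio.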
